A study of Rattus norvegicus with 18 samples.

Results

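The samples compared were the normal diet (ND) cultures at 2 months of feeding against the ND cultures at 1 month. They were chosen by their titles alone, and are 6 of the 18 arrays of the series, 3 at each feeding time. Each array measured total RNA of bone marrow mesenchymal stem cells (BMSC) from a Sprague-Dawley rat on an Affymetrix rat expression array. The rats entered the feeding groups at 6 weeks of age, and every ND rat received 100% basal diet, so the 2-month and 1-month groups differ in the age of the rats as much as in feeding time, and these cannot be told apart. No transgene, deletion or drug is named for any group. The other arrays hold ND at 4 months and a high-fat diet (HFD; 60% basal diet, 20% lard, 10% sucrose and 10% egg yolk powder) at 1, 2 and 4 months. The cells were grown by plating whole marrow and passaging what adhered. Passage 3 stands in the sample labels but passage 1 in the series text, and the difference could not be resolved. The labels do not say that the replicates of a group are separate rats beyond a number of 3 per group, so p-values here reflect only how much the arrays vary, which may be partly technical.

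Bone marrow stromal cells are fibroblast-like adherent cells that can form bone, cartilage and fat and that support blood formation in the marrow. They are recognised by surface proteins such as Thy1, and by the lack of blood cell proteins such as the leukocyte phosphatase Ptprc. Marrow macrophages also stick to plastic, so whole marrow plating carries them into early cultures, and passaging lowers their number.

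In log2 intensity, no probe set passed the test between ND at 2 months and ND at 1 month. Of 21729 tested probe sets, 0 passed at a limma Benjamini-Hochberg adjusted p under 0.05 (0%), and the lowest adjusted p was 1.00. Without adjustment, 562 probe sets (2.59%) had a p under 0.05, below the 5% that evenly spread p-values would give. This unadjusted count depended on single arrays. It was 1882 without 1-month replicate 1, 1983 without 2-month replicate 3, and 362 to 672 without each other array of the 2 groups. With weighted arrays it was 3225. For 9811 of 11446 named genes (85.7%) the 95% interval of the difference lay inside a 2-fold change in either direction. The median standard error was 0.17 log2 units for probe sets with all 6 values. Of the 25 named genes with the widest spread inside the groups, among those with all 6 values, 7 were on the macrophage list described next (28%), against 24 of all 10564 such genes (0.227%). In 24 of the 25 the same 3 cultures, 2-month replicates 1 and 2 and 1-month replicate 1, read highest. With 2-month replicate 3 and 1-month replicate 1 both left out, 766 probe sets passed. Those arrays were picked with their macrophage gene levels known, so that count describes cultures chosen on these values and is not a result of feeding time. With either one alone left out 0 passed.

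The 28 tested genes of a 31-gene macrophage and monocyte list all read higher on average at 2 months, by a median of 1.85 log2 units, and 0 passed. With 1 array left out the median lay between 0.84 (without 1-month replicate 3) and 3.15 (without 1-month replicate 1), and it was 2.83 without 2-month replicate 3, with 26 to 28 genes positive. Over all named genes 46.4% were positive and the median was -0.01. Unadjusted p was under 0.05 for 5 of the 28, against 2.22% of all named genes. Of these, Cd53, Aif1 and Cd14 have no value on 1-month replicate 1, a gap described below, and Lyz2 and Adgre1 have all 6 values. The list was chosen with earlier results of these data known. The mean over the 24 list genes with a value on every array was 1.68 log2 units higher at 2 months. Its SD between cultures was 1.91 at 2 months and 2.33 at 1 month, so this difference was not separated from variation between cultures. In a bulk culture with high values, more macrophages and more macrophage RNA per cell cannot be told apart either. Cd68, a lysosomal glycoprotein of macrophages, read 10.68, 10.66 and 6.65 log2 units in ND 2-month replicates 1 to 3, against 10.63, 6.51 and 4.53 in ND 1-month replicates 1 to 3. The 2 groups overlapped, since 2-month replicates 1 and 2 and 1-month replicate 1 were all high and the other 3 cultures low. Its log2 fold change was 2.11 ± 1.39 (SE, n = 3 per group).

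Most other macrophage genes showed the same cultures high. Lysozyme, Lyz2, which digests bacterial walls, read 12.92, 12.93 and 11.00 log2 units at 2 months, against 12.89, 9.60 and 8.07 at 1 month (log2 fold change 2.09 ± 0.91). Adgre1, an adhesion receptor of mature macrophages, read 9.94, 9.73 and 6.67 at 2 months, against 8.87, 6.27 and 4.25 at 1 month. Csf1r, the receptor for the growth factor that macrophages need, read 8.01, 7.94 and 4.12 at 2 months, against 8.19, 4.03 and 3.39 at 1 month. In each of these the 1-month replicate 1 lay above the 2-month replicate 3. Ptprc, the phosphatase shared by all white blood cells, read 7.56, 6.82 and 4.60 at 2 months, against 7.27, 3.78 and 2.18 at 1 month. The integrin subunit Itgam read 7.83, 7.66 and 3.47 at 2 months, against 7.34, 3.54 and 3.70 at 1 month. The inhibitory antibody receptor Fcgr2b, the gene with the widest spread inside the groups of all named genes with 6 values, read 9.15, 8.89 and 3.05 at 2 months, against 9.33, 2.34 and 1.89 at 1 month. Its pooled within-group SD of 3.83 log2 units was larger than its difference of 2.51 ± 1.89. Some listed genes were dim. Cx3cr1 stayed between 3.19 and 3.54, Cd74 between 2.70 and 3.95, and Ccr2, below the filter level, between 1.99 and 2.14. Of the 24 list genes with a value on all 6 arrays, 23 had 2-month replicates 1 and 2 and 1-month replicate 1 as their 3 highest cultures, and the 2 feeding times overlapped in all 24 (over all probe sets with 6 values 5.85% did not overlap, 2.1% with 2 months higher).

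**Figure D1:**
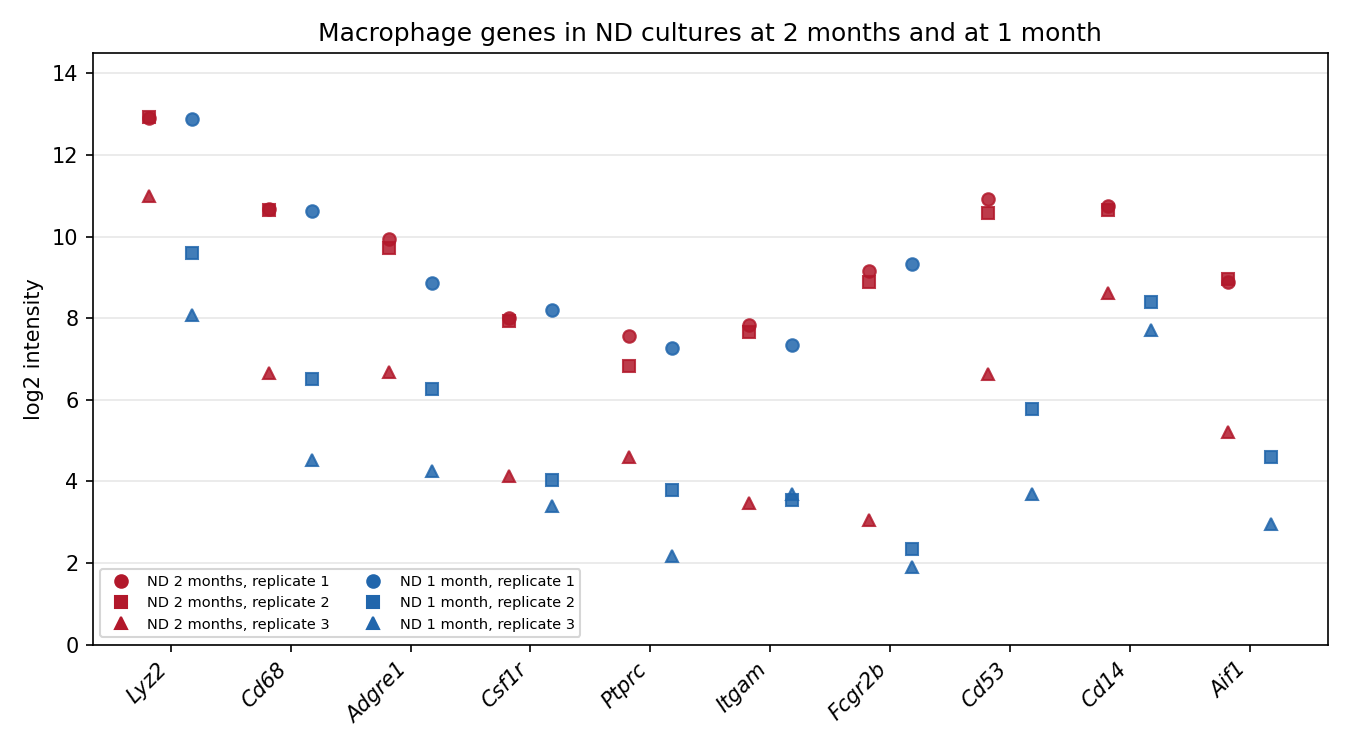
Log2 intensity (vertical axis) of 10 macrophage genes in each ND culture, 2 months in red left of 1 month in blue, with the marker shape giving the replicate. Cd68 read above 10 in 2-month replicates 1 and 2 and 1-month replicate 1 and below 7 in the other 3 cultures. Cd53, Cd14 and Aif1 have no value on 1-month replicate 1.

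Promoter sequences of 4 of these genes are shown as examples, and why their levels moved together across the cultures was not tested. Each is the 250 bases before the start of transcription on the gene's strand, from RefSeq in the GRCr8 assembly. The capitals mark GAGGAA or its reverse complement, the core of sites bound by PU.1, a transcription factor of macrophage development. Cd68 lies on the minus strand at chr10:54882442-54882691, Lyz2 on the minus strand at chr7:54798012-54798261, Ptprc on the minus strand at chr13:52259747-52259996 and Itgam on the plus strand at chr1:192089342-192089591.
Cd68: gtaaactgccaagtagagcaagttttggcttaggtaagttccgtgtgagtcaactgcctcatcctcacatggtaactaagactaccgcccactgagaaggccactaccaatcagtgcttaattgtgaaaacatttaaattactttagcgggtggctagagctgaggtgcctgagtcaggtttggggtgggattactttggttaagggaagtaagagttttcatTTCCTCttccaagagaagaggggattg
Lyz2: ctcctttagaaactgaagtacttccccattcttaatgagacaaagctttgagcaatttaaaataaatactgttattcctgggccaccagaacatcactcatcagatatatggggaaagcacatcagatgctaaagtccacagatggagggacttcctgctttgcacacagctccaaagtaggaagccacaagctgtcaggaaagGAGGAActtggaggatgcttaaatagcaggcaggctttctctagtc
Ptprc: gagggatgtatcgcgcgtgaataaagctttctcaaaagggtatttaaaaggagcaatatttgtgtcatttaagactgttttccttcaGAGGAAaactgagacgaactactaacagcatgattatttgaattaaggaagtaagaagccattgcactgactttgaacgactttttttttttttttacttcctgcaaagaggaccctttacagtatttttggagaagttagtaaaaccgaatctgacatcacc
Itgam: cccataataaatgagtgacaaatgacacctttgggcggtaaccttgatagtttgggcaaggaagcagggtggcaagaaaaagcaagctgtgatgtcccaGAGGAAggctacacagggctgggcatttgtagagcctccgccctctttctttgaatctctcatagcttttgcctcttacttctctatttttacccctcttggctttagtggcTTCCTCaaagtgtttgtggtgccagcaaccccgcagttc
The promoter table held 22 of the 28 tested macrophage genes, and on either strand 17 of them (77.3%) had GAGGAA in these 250 bases, against 22.8% of 9529 promoters of tested genes and 23.2% of all 27457. Of 12 stromal surface marker promoters 4 (33.3%) had it. Of the 2 motifs searched, the longer GAGGAAGT, which contains the shorter, was searched first and was found in 2 of the 22 macrophage promoters (9.09%) and in 2 of the 12 stromal ones (16.7%), against 2.16% of tested genes. The shorter one was searched after those counts were seen. A match in these letters is a description of sequence and says nothing of what binds there.

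A gap in the deposited table affects the largest differences. In the deposited table the values of 1-month replicate 1 were offset by 1343 rows, and after realignment 1343 probe sets, 1066 of them tested, had no value on that array. Their differences compare 3 arrays at 2 months with 2 at 1 month, and the array they lack is the 1-month culture with high macrophage genes. Of 239 genes with an absolute log2 fold change of at least 1, 77 (32.2%) lacked that value, against 7.71% of all named genes. The 24 macrophage genes with 6 values had log2 fold changes from 0.06 to 2.53 with a median of 1.75. The 4 genes without the value had a median of 2.92, from 0.20 to 4.64. When the same array was left out for the 24 complete genes, their median was 3.15.

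The macrophage genes with the largest moderated t illustrate this gap. Cd53, a leukocyte tetraspanin, read 10.92, 10.59 and 6.63 log2 units at 2 months, against 5.78 and 3.70 at 1 month in replicates 2 and 3 (log2 fold change 4.64 ± 1.22). Aif1, a calcium-binding protein of macrophages, read 8.89, 8.95 and 5.20 at 2 months, against 4.60 and 2.96 at 1 month. Cd14, a co-receptor for bacterial lipopolysaccharide, read 10.76, 10.65 and 8.61 at 2 months, against 8.41 and 7.72 at 1 month. The groups did not overlap in these 3 of the 4 list genes without that value, while 18.5% of all incomplete probe sets did not overlap, 10% with 2 months higher. Cd74, the other such gene, overlapped, at 3.60, 3.95 and 2.70 at 2 months, against 3.33 and 3.11 at 1 month. In Cd53, Aif1 and Cd14 the 2-month replicate 3 lay nearer to the 1-month arrays than to the other 2-month arrays.

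The genes with the highest and lowest moderated t did not pass, and all have an adjusted p of 1.00 in limma. Frzb, a secreted WNT antagonist (gene 295691, chromosome 3 from 85739162 to 85772168 in GRCr8), had the lowest p of all named genes. It read 4.97, 4.03 and 4.10 log2 units at 2 months, against 3.00, 3.56 and 3.47 at 1 month, with no overlap and a log2 fold change of 1.03 ± 0.23. At 4 months it read 3.28, 2.95 and 2.99, near its 1-month levels. Rec114, a protein of meiotic recombination, read 4.29, 4.13 and 3.58 at 2 months, against 3.01, 2.89 and 2.83 at 1 month (1.09 ± 0.31). Both are dim on these arrays, with 1-month values near the filter level of 3.22. The other 6 on this side lack 1-month replicate 1: C5ar1, the receptor for a complement fragment, Gpnmb, a glycoprotein of macrophages and osteoblasts, Sirpa, the receptor by which macrophages read the surface protein Cd47, the antioxidant enzyme Gpx1, and Cd53 and Aif1. C5ar1 read 10.32, 10.23 and 6.54 at 2 months, against 5.38 and 3.69 at 1 month (4.49 ± 1.06). Gpnmb read 12.57, 12.42 and 10.61 at 2 months, against 10.01 and 8.57 at 1 month (2.57 ± 0.64). Gpx1 read 11.89, 11.98 and 11.21 at 2 months, against 11.01 and 10.94 at 1 month (0.72 ± 0.20). In each of these, 2-month replicates 1 and 2 lay above 2-month replicate 3.

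The 8 genes on the negative side had log2 fold changes from -0.72 to -0.36, and 3.76% of all probe sets with 6 values lay lower at 2 months without overlap. Srcap, a chromatin remodelling ATPase, read 6.50, 6.39 and 6.42 log2 units at 2 months, against 6.69, 6.92 and 6.93 at 1 month (log2 fold change -0.41 ± 0.11). Ccdc126, a coiled-coil protein, read 9.05, 9.31 and 9.23 at 2 months, against 9.58, 9.64 and 9.62 at 1 month (-0.42 ± 0.11). At 4 months Ccdc126 read 8.90, 8.81 and 9.07, also below its 1-month values. Klf12, a zinc finger repressor, read 4.24, 4.33 and 4.01 at 2 months, against 4.64, 4.59 and 4.69 at 1 month, and 4.56, 4.81 and 4.67 at 4 months. Nbas, a protein of transport between the Golgi and the endoplasmic reticulum, read 7.47, 7.72 and 7.40 at 2 months, against 8.16, 7.89 and 7.96 at 1 month. These 4 genes, chosen for their low t, did not overlap between 2 months and 1 month. Irag1, a substrate of the cGMP-dependent kinase in smooth muscle, read 7.43, 7.31 and 8.13 at 2 months, against 8.06, 8.39 and 8.58 at 1 month and overlapped. Caly, Mbip and the uncharacterised RGD1562465 had log2 fold changes of -0.36, -0.37 and -0.68.

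**Figure D2:**
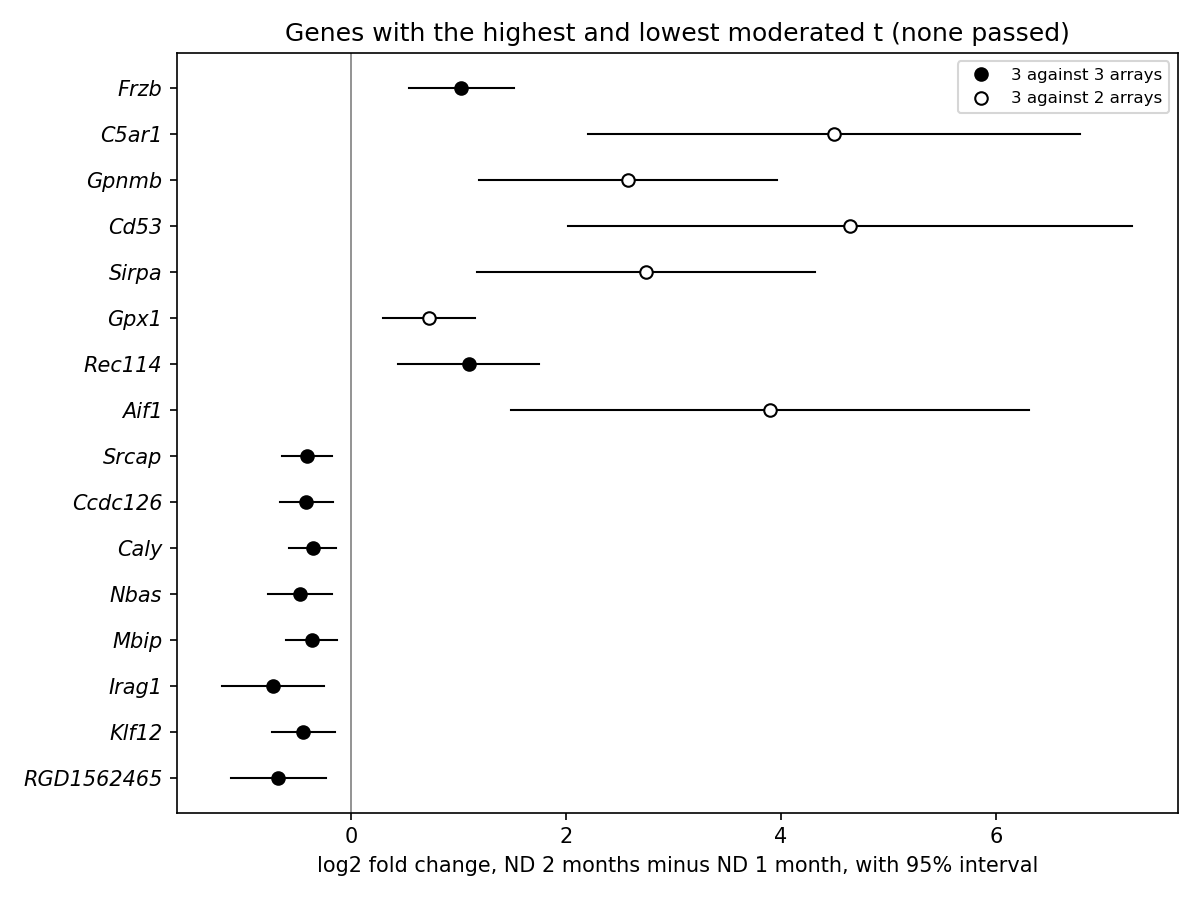
Log2 fold change of ND at 2 months minus ND at 1 month (horizontal axis) with its 95% interval for the 8 named genes with the highest and the 8 with the lowest moderated t. Open circles rest on 2 arrays at 1 month. The widest intervals belong to genes of macrophages such as Cd53, from 2.02 to 7.27, and Srcap spans -0.65 to -0.18.

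The label of the cells was checked against 18 stromal surface genes, of which 16 lay above the filter and were tested. Summed over 15 genes, their level was 13.47 to 13.64 log2 units in ND at 2 months, against 13.45 to 13.64 in ND at 1 month, a sum carried by bright genes such as Thy1, Itgb1 and Pdgfra. Other listed markers were dim: Ngfr stayed between 1.82 and 2.60, Lepr between 2.50 and 3.72 and Ly6al between 3.38 and 3.64, while Vcam1 spanned 3.64 to 6.77 and Cspg4 3.74 to 6.19. Of 16 tested stromal markers 9 were positive, the median log2 fold change was 0.06 and 0 passed. That median was -0.097 without 1-month replicate 2 and 0.18 without 1-month replicate 1. Thy1, the glycoprotein by which these cells are sorted, read 11.91, 11.98 and 11.90 at 2 months, against 11.99, 11.82 and 12.13 at 1 month, a difference of -0.05 ± 0.11. The integrin subunit Itgb1 read 10.82, 10.96 and 11.18 at 2 months, against 10.87, 11.03 and 11.23 at 1 month. Pdgfra, a receptor for platelet-derived growth factor, read 11.29, 10.85 and 10.67 at 2 months, against 10.78, 10.83 and 9.91 at 1 month. In these 3 the groups overlapped, and Pdgfra was lowest in 1-month replicate 3. Pdgfrb, the related receptor, read 8.45, 8.57 and 8.63 at 2 months, against 8.72, 8.80 and 9.45 at 1 month, with no overlap (-0.44 ± 0.30), and it did not pass. The ectonucleotidase Nt5e read 8.46, 8.51 and 6.67 at 2 months, against 8.66, 7.37 and 6.72 at 1 month. Cd200, an immune-inhibitory surface protein, read 8.33, 8.32 and 5.51 at 2 months, against 9.65, 5.63 and 5.44 at 1 month. Both were highest in the cultures with high macrophage genes, and whether the stromal cells or the macrophages carry that RNA was not tested.

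**Figure D3:**
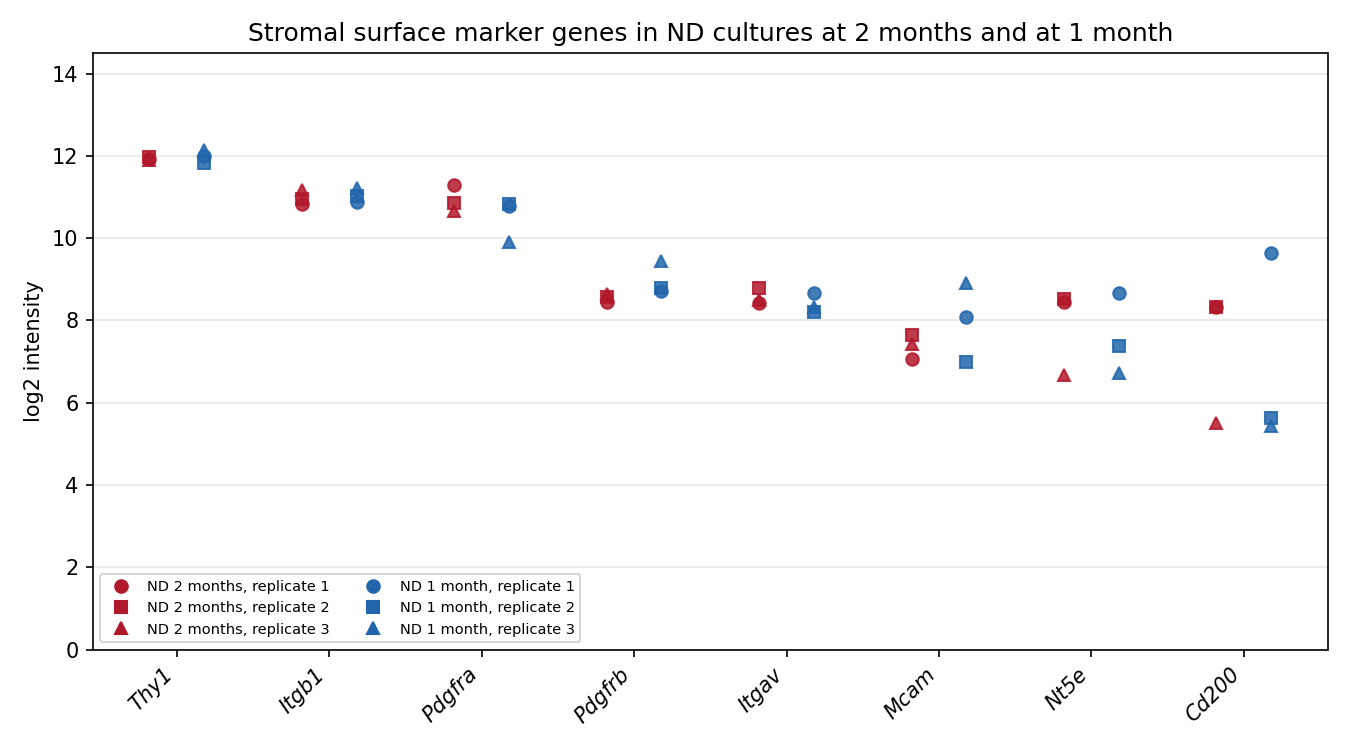
Log2 intensity (vertical axis) of 8 stromal surface marker genes in each ND culture, 2 months in red left of 1 month in blue, with the marker shape giving the replicate. Thy1 stays between 11.82 and 12.13 in all 6 cultures, while Cd200 spans 5.44 to 9.65.

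Markers of other marrow cells were mixed. The lists had 4 of 10 endothelial, 5 of 9 lymphocyte, 5 of 9 erythroid and megakaryocyte, 5 of 8 granulocyte and mast cell and 5 of 8 osteoclast genes on the array above the filter. Of the defining genes, the endothelial adhesion protein Pecam1 stayed between 2.04 and 2.90 log2 units, the B cell protein Ms4a1 between 2.15 and 2.85, the T cell receptor subunit Cd3d between 1.94 and 2.31 and the neutrophil protein S100a9 between 1.65 and 2.07 over the 6 cultures. The erythroid factor Gata1 stayed between 2.65 and 3.09, all at or below the filter level. Other listed genes were brighter. The endothelial secreted protein Egfl7 stayed between 6.39 and 6.80, the lymphocyte kinase Lck between 4.85 and 6.14 and the globin Hbb between 4.62 and 4.95. Several were highest in the cultures with high macrophage genes. The summed lymphocyte list was 6.83 to 7.71 at 2 months, against 6.73 to 7.72 at 1 month, and the summed endothelial list 7.58 to 8.15, against 7.47 to 7.76. The T cell co-receptor Cd8a read 4.80, 5.41 and 2.50 at 2 months, against 5.71, 2.21 and 2.57 at 1 month. The endothelial receptor Tie1 read 4.45, 4.90 and 2.75 at 2 months, against 4.91, 2.59 and 2.71 at 1 month. Of osteoclast genes, the protease Ctsk stayed between 8.36 and 9.20 and the transcription factor Nfatc1 between 6.70 and 7.33. The chemokine Pf4, on the list as a platelet gene and also made by macrophages, read 10.94, 11.87 and 7.08 at 2 months, against 11.62, 7.57 and 4.61 at 1 month. The summed macrophage list was 14.98, 14.96 and 12.67 log2 units at 2 months, against 14.92, 12.38 and 11.41 at 1 month. Cd68 and Lyz2 lay above the filter level in all 6 cultures.

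The means of the bone and fat lineage lists were lowest in the cultures with high macrophage genes. A fit with the macrophage list mean as a covariate was run, and genes whose sign reversed in it are given at the end. Apart from that fit, the part of the macrophage level in the differences of these and the other lists was not tested. The mean of 9 osteogenic genes, relative to the 6 cultures, was -0.36, -0.40 and 0.33 at 2 months, against -0.53, 0.52 and 0.44 at 1 month, and that of 13 adipogenic genes was -0.32, -0.46 and 0.15, against -0.61, 0.54 and 0.69. Osteogenic genes had 8 of 13 negative values and a median log2 fold change of -0.22, and adipogenic genes had 10 of 16 negative with a median of -0.20; 0 passed in either list. With 1 array left out the osteogenic median lay between -0.35 (without 1-month replicate 1) and 0.071 (without 1-month replicate 3), so its sign rests on 1-month replicate 3, and the adipogenic median between -0.37 (without 1-month replicate 1) and -0.089 (without 1-month replicate 2). The bone morphogen Bmp2 read 4.86, 5.80 and 6.51 log2 units at 2 months, against 5.27, 6.90 and 7.67 at 1 month. Ibsp, a bone matrix sialoprotein, read 4.90, 6.42 and 6.37 at 2 months, against 8.21 and 6.02 at 1 month. The osteoblast homeobox factors Msx2 and Dlx5 had log2 fold changes of -0.61 ± 0.34 and -0.72 ± 0.52. Among fat cell genes, the fatty acid carrier Fabp4 read 7.99, 6.71 and 10.19 at 2 months, against 10.24 and 10.44 at 1 month. The adipokine Cfd read 7.37, 7.28 and 8.59 at 2 months, against 7.98, 8.89 and 11.36 at 1 month. Adiponectin, Adipoq, read 2.96, 3.14 and 3.67 at 2 months, against 3.16, 4.03 and 7.03 at 1 month, and was highest in 1-month replicate 3. The preadipocyte factor Zfp423 read 6.26, 6.04 and 6.46 at 2 months, against 6.98 and 6.70 at 1 month.

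Smooth muscle and matrix genes did not pass either. Of 16 contractile genes 13 were negative with a median of -0.19, and of 32 collagen and matrix genes 23 were negative with a median of -0.18. Without 1-month replicate 3 the medians were -0.053 and 0.0021. The lowest with 1 array left out were -0.29 (contractile, without 1-month replicate 2) and -0.27 (matrix, without 1-month replicate 1). Smooth muscle actin, Acta2, read 10.63, 11.18 and 11.51 log2 units at 2 months, against 11.18, 11.47 and 12.27 at 1 month. The actin-binding protein Tagln read 12.66, 12.79 and 12.78 at 2 months, against 12.79 and 13.05 at 1 month. Among cultures with a value, the highest for both was 1-month replicate 3, which had the lowest macrophage level. Tagln has no value on 1-month replicate 1. Lox, which crosslinks collagen, read 11.96, 11.85 and 11.91 at 2 months, against 11.79 and 11.42 at 1 month (0.31 ± 0.12). Fbln1 of the matrix list read 5.42, 5.87 and 5.37 at 2 months, against 5.23, 5.21 and 5.20 at 1 month (0.34 ± 0.23). Basement membrane collagen Col4a2 had a log2 fold change of -0.45 ± 0.26, the elastic fibre protein Fbln5 of -1.07 ± 0.75 and the actin nucleator Lmod1 of -0.59 ± 0.37.

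No gene of the signalling lists passed. Of 23 WNT genes 9 were positive (median log2 fold change -0.07), of 28 TGF-beta and BMP genes 8 (median -0.12) and of 9 Notch and Hedgehog genes 1 (median -0.07). Without 1-month replicate 3 these medians were -0.0031, -0.046 and 0.017, and the lowest with 1 array left out were -0.20, -0.22 and -0.26 (without 2-month replicate 2, 1-month replicate 2 and 1-month replicate 1, in the same order). The WNT antagonist Sfrp4 read 9.77, 8.93 and 7.92 log2 units at 2 months, against 8.23 and 6.93 at 1 month. The WNT target Axin2 read 4.77, 4.88 and 4.60 at 2 months, against 5.25, 5.12 and 4.71 at 1 month. The ligand Tgfb3 read 9.18, 9.92 and 10.42 at 2 months, against 10.30 and 11.48 at 1 month. The Notch ligand Jag1 read 6.74, 6.82 and 8.41 at 2 months, against 8.28 and 9.66 at 1 month. In Tgfb3 and Jag1 the 2-month replicate 3 lay inside the range of the 1-month arrays. Tgfb2, another ligand of that family, had a log2 fold change of -0.62 ± 0.40. Of 16 insulin and IGF genes 8 were positive and 8 negative, with a median of -0.04. With 1 array left out that median lay between -0.10 and 0.088. The growth hormone receptor Ghr had -1.03 ± 0.94 and the insulin-like growth factor receptor Igf1r -0.23 ± 0.15. Igfbp3 of the same list had 0.99 ± 0.85, against 2 arrays at 1 month.

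The mean of inflammatory genes was highest in the same cultures as macrophage genes. The mean of 17 complete NF-kB targets and chemokines was 0.74, 0.81 and -0.82 at 2 months, against 0.66, -0.56 and -0.83 at 1 month. Of 22 targets of the inflammatory factor NF-kB, 16 were positive with a median of 0.28. Of 13 acute-phase and complement genes 12 were positive with a median of 0.81, and 0 passed. The 9 with all 6 values had a median of 0.55, and the 4 without 1-month replicate 1 had 0.87. With 1 array left out the NF-kB median lay between 0.018 (without 1-month replicate 3) and 0.71 (without 2-month replicate 3), and the acute-phase median between 0.37 (without 2-month replicate 2) and 1.00 (without 2-month replicate 3). Complement C3 read 10.17, 10.03 and 4.73 log2 units at 2 months, against 5.25 and 3.67 at 1 month (3.85 ± 1.66). The chaperone Clu read 9.45, 8.81 and 8.85 at 2 months, against 7.96 and 8.30 at 1 month. The monocyte attractant Ccl2 read 12.22, 12.25 and 10.42 at 2 months, against 11.15 and 10.89 at 1 month. Stromelysin, Mmp3, read 7.89, 8.86 and 2.55 at 2 months, against 2.99 and 3.11 at 1 month. In C3, Ccl2 and Mmp3 the 2-month replicate 3 was low, and 1-month replicate 1 has no value. The macrophage elastase Mmp12 read 9.98, 8.57 and 5.80 at 2 months, against 5.81 and 4.30 at 1 month. Tartrate-resistant acid phosphatase, Acp5, read 7.62, 7.80 and 6.22 at 2 months, against 6.29 and 5.68 at 1 month. Neutrophil attractant Cxcl2 had a log2 fold change of 2.77 ± 2.05, the collagenase Mmp13 of 1.34 ± 0.77 and Tnfaip6, which binds hyaluronan, of 0.71 ± 0.41.

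Glycolysis and hypoxia genes were positive in most members. In glycolysis 16 of 17 were positive with a median log2 fold change of 0.36, in hypoxia 20 of 23 with a median of 0.24, and 0 passed. Over genes with all 6 values the medians were 0.28 (11 glycolysis genes) and 0.23 (20 hypoxia genes). Over those without 1-month replicate 1 they were 0.49 (6 genes) and 0.95 (3 genes). With 1 array left out the glycolysis median lay between 0.061 (without 2-month replicate 2) and 0.61 (without 2-month replicate 3), and the hypoxia median between 0.074 (without 1-month replicate 3) and 0.51 (without 1-month replicate 1). The lactate transporter Slc16a1, with a value on all arrays, read 8.70, 8.66 and 8.53 log2 units at 2 months, against 8.34, 8.41 and 7.84 at 1 month, with no overlap (0.43 ± 0.15). Lactate dehydrogenase, Ldha, read 12.43, 12.68 and 11.89 at 2 months, against 12.00 and 11.64 at 1 month. The hypoxia-induced hydroxylase Egln3 read 7.06, 7.66 and 2.67 at 2 months, against 2.88 and 2.46 at 1 month. The mean over 11 complete glycolysis genes, relative to the 6 cultures, was 0.32, 0.70 and -0.53 at 2 months, against 0.60, -0.41 and -0.68 at 1 month. This order has the same 3 cultures high as the macrophage list. Aldoa and Pfkm, enzymes of the same pathway, had log2 fold changes of 0.36 ± 0.20 and 0.48 ± 0.23. Mitochondrial Ucp2 and the iron oxidases Heph and Cp had 1.14 ± 0.49, 2.72 ± 1.07 and 1.14 ± 0.52, all against 2 arrays at 1 month.

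The oxidative phosphorylation and ribosomal lists were level. Oxidative phosphorylation had a median of -0.01 over 25 genes, and all 25 had 95% intervals inside 2-fold. Ribosomal proteins had a median of -0.01 over 18 genes, and again all 18 intervals lay inside 2-fold. The ribosomal stalk protein Rplp0 read 12.12, 11.98 and 12.15 log2 units at 2 months, against 12.19 and 12.14 at 1 month. Of 45 cell cycle genes 33 were negative, with a median of -0.11, which was 0.046 without 2-month replicate 1 and -0.24 without 2-month replicate 2. The mitotic transcription factor Foxm1 read 4.92, 5.41 and 5.27 at 2 months, against 5.42, 5.85 and 5.27 at 1 month. The homeobox factor Meis1 read 9.30, 9.24 and 9.85 at 2 months, against 9.35, 9.79 and 10.18 at 1 month, and the 24 patterning genes had a median of 0.02. The clock repressor Bhlhe41 read 9.59, 8.59 and 6.94 at 2 months, against 7.06 and 6.29 at 1 month (1.70 ± 0.56).

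**Figure D4:**
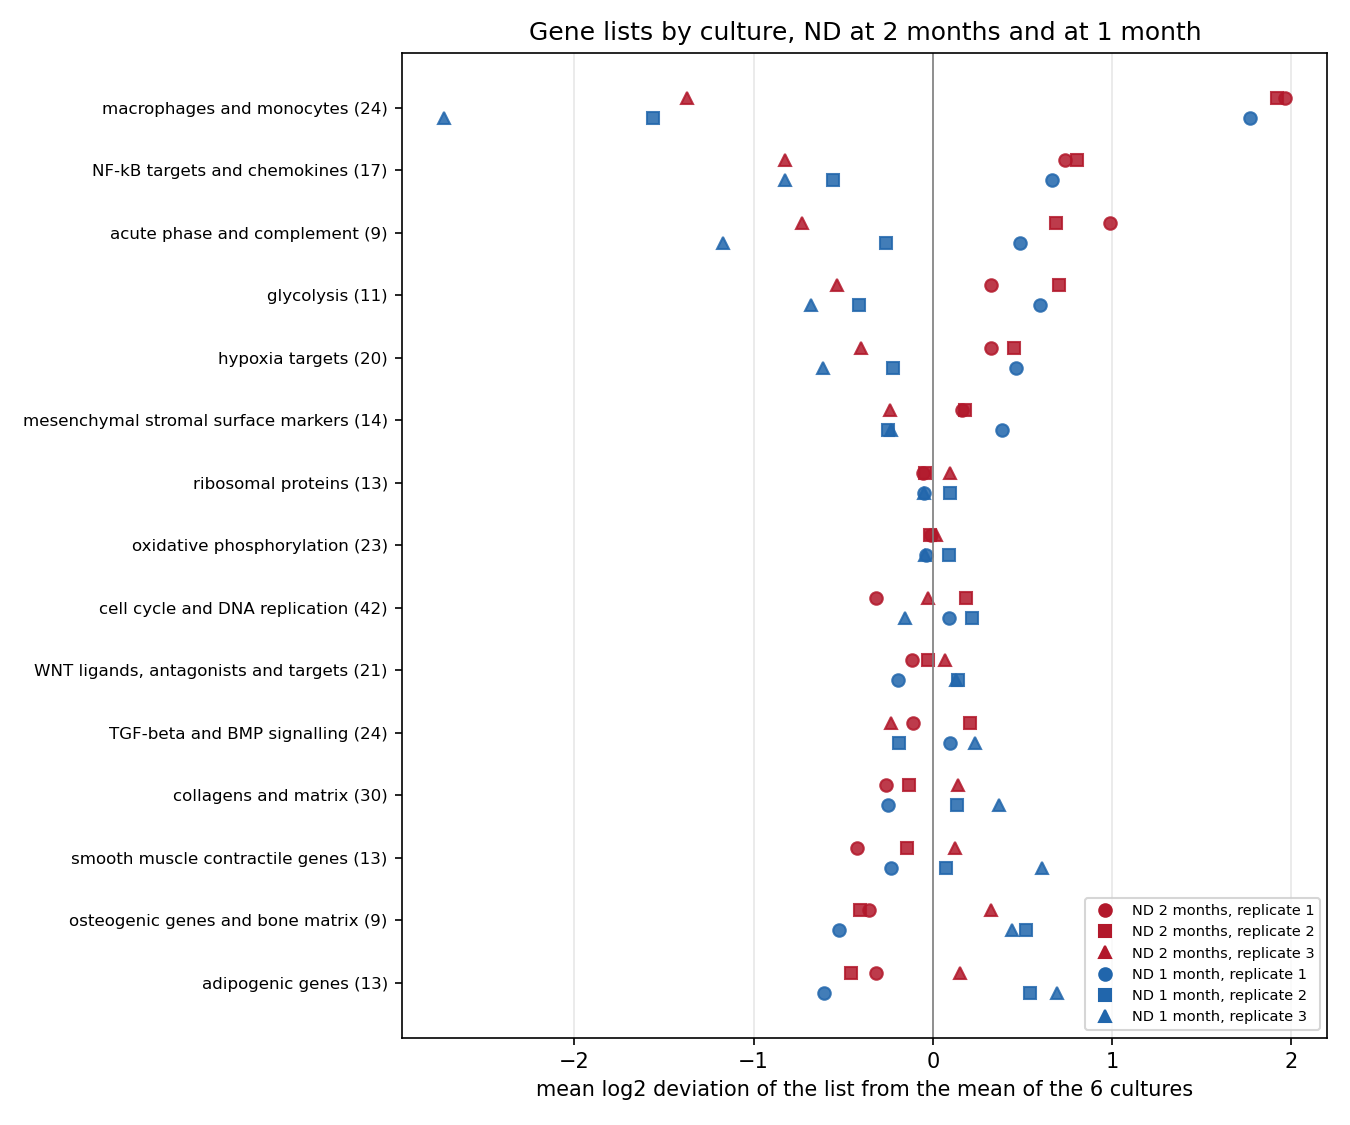
Mean log2 deviation of each gene list from its mean over the 6 ND cultures (horizontal axis), over the genes with a value on all 6 arrays (number in brackets), 2 months in red above 1 month in blue, with the marker shape giving the replicate. The macrophage list stands at 1.97, 1.92 and -1.37 at 2 months, against 1.77, -1.56 and -2.73 at 1 month, and the ribosomal list stays within 0.10 of 0 in all 6 cultures.

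The similarity between whole arrays did not follow feeding time. Correlations were taken over the tested probe sets with all 6 values. The 6 pairs of arrays from the same feeding time had 0.937 to 0.985, with a median of 0.949. The 9 pairs across feeding times had 0.937 to 0.992, with a median of 0.950. The closest pair was 2-month replicate 3 with 1-month replicate 2, where 43 named genes with all 6 values lay at least 2-fold apart. Next was 2-month replicate 2 with 1-month replicate 1, where 106 genes did. Within the 2-month group, replicates 1 and 3 differed at least 2-fold in 780 genes. These pairs share arrays with each other, and no test was made of them. The 3' minus 5' signal of the actin control probe sets, a sign of RNA quality, was 0.701, 0.565 and 0.545 log2 units at 2 months, against 0.506, 0.494 and 0.476 at 1 month. The groups did not overlap in this measure, and its part in the differences between feeding times was not tested.

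**Figure D5:**
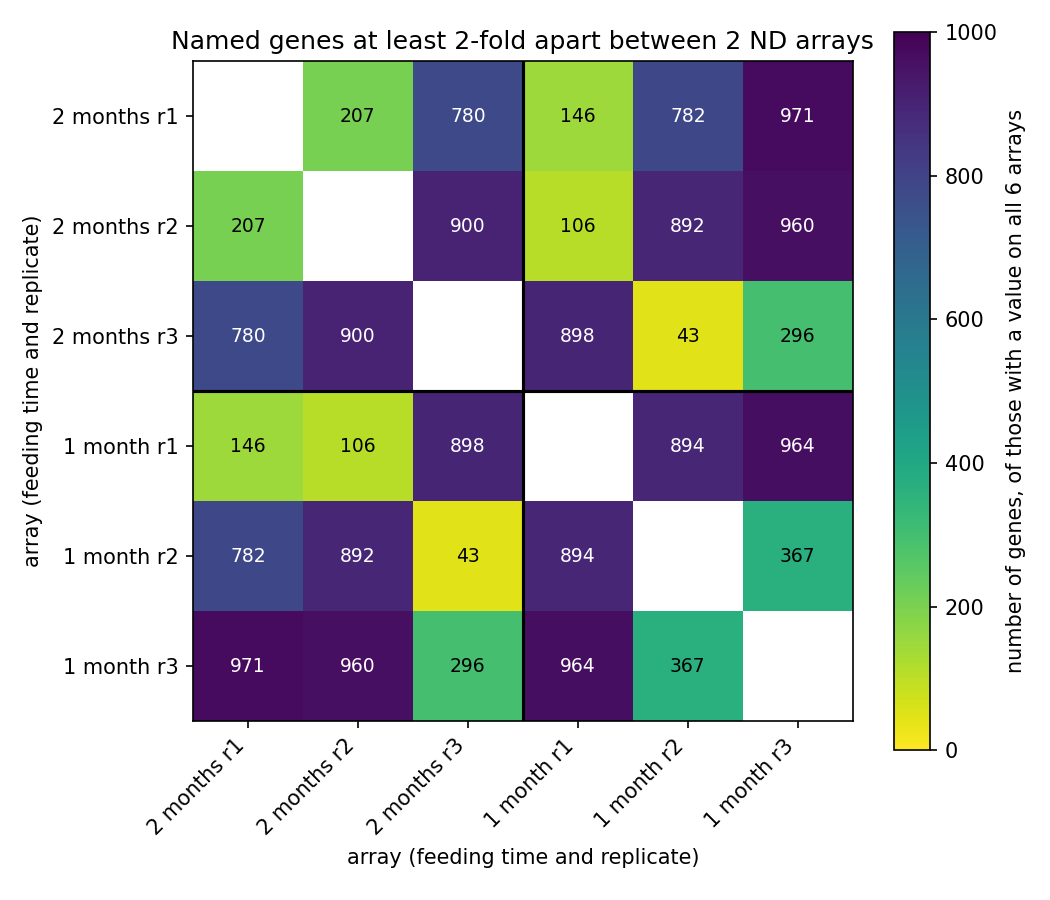
Number of named genes at least 2-fold apart between each pair of ND arrays, 2 months before 1 month on both axes. The 2-month replicate 3 differs from 1-month replicate 2 in 43 genes and from 2-month replicate 2 in 900.

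The ND cultures at 4 months were set beside the earlier ones. The macrophage list mean, relative to the 6 earlier cultures, was 1.77, -1.56 and -2.73 at 1 month, 1.97, 1.92 and -1.37 at 2 months and 0.74, 2.07 and 0.43 at 4 months. Its SD over 3 cultures was 2.33, 1.91 and 0.87 in that order. Cd68 read 9.74, 10.78 and 9.08 log2 units at 4 months, all above the 1-month replicates 2 and 3. Fcgr2b read 8.26, 7.49 and 8.18 at 4 months. The complement genes C1qb and C1qc were high in replicate 2 alone, at 3.37, 9.05 and 3.35 for C1qb and 4.10, 9.53 and 3.93 for C1qc. No test of this order was made.

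The same step from 1 to 2 months was also made on HFD, with other arrays, where 17 of 21729 probe sets passed (0.0782%), 6 higher (0.0276%) and 11 lower (0.0506%) at 2 months, and 7.76% had an unadjusted p under 0.05. They stand for 11 named genes. Fitted on the 6 HFD arrays of 1 and 2 months this count was 0, and with weighted arrays it was 558. With 1 array left out it was 0 to 4 for each of 9 arrays: all 3 of ND and of HFD at 1 month, ND 2-month replicate 1 and HFD 2-month replicates 1 and 2. It was 18 and 19 without ND 2-month replicates 2 and 3, and 182 without HFD 2-month replicate 3. Cxcl12, the chemokine that holds blood stem cells in the marrow, fell by 2.94 ± 0.47 log2 units on HFD (limma adjusted p = 0.0395), and its ND difference was 0.20 ± 0.47. The WNT antagonist Sfrp1 fell by 3.03 ± 0.47 on HFD (limma adjusted p = 0.0395). On ND it read 11.09, 10.37 and 11.02 at 2 months, against 10.08, 11.25 and 10.21 at 1 month. Haptoglobin, Hp, fell by 2.82 ± 0.46 on HFD (limma adjusted p = 0.0395), and on ND it read 9.51, 8.99 and 7.79 at 2 months, against 8.08, 8.16 and 8.60 at 1 month.

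Whether the ND step differed from the HFD step was tested as a difference of differences, and 0 of 21729 probe sets passed (0%), with a lowest limma adjusted p of 0.289. Without adjustment, 1455 (6.7%) had a p under 0.05. Leaving out HFD 2-month replicate 3 gave 27. The named genes with the smallest p were Rbm11, Fpgt, C1r, C1s, Hp and Sfrp1. The complement proteases C1r and C1s had an ND step minus HFD step of 1.22 ± 0.23 and 2.74 ± 0.52. Sfrp1 had 3.34 ± 0.66 and Hp 3.30 ± 0.65, each at a limma adjusted p of 0.289. The RNA-binding protein Rbm11 had -1.22 ± 0.22 and Fpgt, an enzyme of fucose salvage, -1.03 ± 0.19. For the macrophage list the median step was 1.85 on ND and -1.04 on HFD. C5ar1 had an ND step minus HFD step of 5.38 ± 1.42 (limma adjusted p = 0.501), which did not pass, and it rests on 2 ND 1-month arrays.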

How the data were processed

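Probe set intensities were deposited by the authors on a linear scale, and RMA, with no version given, is named as the summary method per the submitters' processing notes. The table held 31099 probe sets, 57 of them controls, with intensities from 2.52 to 9915. Log2 of these values was used as it stood. ND 1-month replicate 1 was realigned by its 1343 empty last cells, which brought its correlation with the other arrays' mean to 0.990, against 0.0909 as deposited. Controls and the dimmest 30% of probe sets by mean log2, at or below 3.22, were left out. A gene is represented by its brightest tested probe set with 1 symbol. A limma 3.58.1 model (R 4.3.3) estimated 6 group means from all 18 arrays, with 12 residual and 2.43 prior degrees of freedom. Tests were two-sided with Benjamini-Hochberg adjustment. The fit was tested on simulated data. Precision is limited by having 3 arrays in a group.

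The members and the 49 gene lists were chosen with earlier results of these data known. Named genes were the 8 with the highest and the 8 with the lowest moderated t, up to 4 members of each described list by absolute t, defining markers of a cell type, and the 6 with the smallest p for the difference between diets. Fcgr2b, for its spread, and C1qb and C1qc, for their 4-month levels, were named after their values were seen. Replicate numbers were checked for pairing: deviations from the group means correlated at 0.641, -0.572 and 0.592 for numbers 1, 2 and 3, so the numbers were not used as pairs. Alternatives covered the filter, normalization, variance model, array weights, the arrays fitted, the replicate block, averaging probe sets, cross-hybridizing probe sets, a minimum change of 1.5-fold, the macrophage list mean as a covariate, incomplete probe sets, the column as deposited, and leaving out arrays. Promoters and gene coordinates are from RefSeq, GRCr8. In the 250 bases before each start, GAGGAAGT was searched first and GAGGAA second, the second chosen after the counts of the first were seen.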

Additional observations from a re-analysis of the deposited data

How the results depend on the processing

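The count for ND at 2 months against 1 month was 0 with 1 array left out in turn (0 to 0) and under each other setting run except 1. Without 2-month replicate 3 and 1-month replicate 1 of ND together it was 766, 431 higher and 335 lower. Those arrays were picked knowing their macrophage marker levels, so 766 counts cultures chosen on these values and is not a result of feeding time. Without them the difference between diets had 455. That difference otherwise had 0 to 27 with 1 array left out, 27 without HFD 2-month replicate 3. The HFD count of 17 was 558 with array weights, 70 with the macrophage covariate, and 0 with the compared arrays only, with the replicate block, with a minimum change of 1.5-fold and with the shifted column as deposited; with 1 array left out it was 0 to 182. The replicate numbers share only a number, and the replicate block gave 0 for ND and for the difference between diets. Leaving out 1 array leaves a group with 2, assumed to vary like the others. Of 49 list medians 13 moved by more than 1 SD under at least 1 setting. For single genes 29 of 1724 alternative values passed and 28 reversed. Listed next are the genes whose sign reversed with the macrophage covariate, so they were picked by that setting. Genes that kept their sign with it are not listed. The log2 fold change with it was -0.40 for Pf4, -0.079 for Acp5, 0.0016 for Thy1, 0.041 for Itgb1 and -0.40 for Nt5e. It was -0.77 for Cd200, 0.19 for Ibsp, 0.10 for Fbln5, 0.14 for Tgfb3, 0.37 for Jag1 and -0.22 for C3. Further values were -0.40 for Ccl2, -0.92 for Mmp3, -0.013 for Pfkm, -0.12 for Aldoa and -0.16 for Ldha. For Egln3 it was -0.074, for Cp -0.34, for Ucp2 -0.32 and for Ghr 0.21. The cause of these reversals was not tested. Sfrp1 stood at -0.0044 without the 2 arrays. With 1 array left out, Thy1 ranged from -0.13 to 0.026, Itgb1 from -0.15 to 0.033, Nt5e from -0.13 to 0.91 and Cd200 from -0.25 to 1.85. Values of single genes and list medians were not computed for the column as deposited, where a row holds another probe set's value, nor those of macrophage genes with their own mean as a covariate.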
